A study of Rattus norvegicus with 25 samples.

Results

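Heat shock proteins and their J-domain cochaperones were followed in 2 brain regions of adult male Sprague-Dawley rats, the left basolateral amygdala (BLA) and the left dentate gyrus (DG). Members were taken by name and by level. The gene name had to begin with Hspa, Hspb, Hspd, Hspe, Hsph, Hsp90, Dnaja, Dnajb or Dnajc in any case, and the mean level in the control libraries of the region had to be at least 1 TPM (the share of transcripts in a library, scaled to a fixed total and corrected for transcript length). Of 25360 gene names in the series, 72 matched, under 75 gene identifiers, and identifiers that shared a name were summed. Of these, 63 reached the level in the BLA and 64 in the DG, against 14145 and 13317 of all genes. The 63 members of the BLA were all members of the DG as well. Hspb2 was the additional member of the DG. Members were not chosen for any difference between groups. Just inside the limit were Hspa1l in the BLA, with 1.80 TPM, and Hspa12b in the DG, with 2.21 TPM. Just outside were Hspb2 in the BLA, with 0.633 TPM, and Dnajb7 in the DG, with 0.64 TPM. Dnajb7, Dnajb8, Dnajc22, Dnajc5b, Dnajc5g, Hspb3, Hspb7 and Hspb9 lay under the limit in both regions.

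Heat shock proteins are molecular chaperones, which bind unfolded or partly folded proteins and help them fold, assemble, cross membranes or reach the degradation machinery. HSP70 proteins work in a cycle of ATP hydrolysis that J-domain proteins start and that nucleotide exchange factors, among them the HSP110 proteins, complete, while HSP90 takes over client proteins such as steroid hormone receptors and kinases. Heat shock factor 1 raises the transcription of the inducible cytosolic members when proteins unfold in the cytosol, and the unfolded protein response does the same for members of the endoplasmic reticulum (ER). In neurons, chaperones also uncoat clathrin-coated vesicles and protect synaptic vesicle proteins, and the glucocorticoid receptor depends on HSP90 and HSP70 for hormone binding.

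The rats of both stress groups were held immobile for 3 h in the presence of fox urine, a predator scent, on a single occasion, and control rats were left in their home cages. Behaviour was tested on days 7 and 8, and the brains were frozen on day 9, so the libraries describe a time long after the stressor itself. Stressed rats were sequenced from the ends of a composite score of anxiety-like behaviour, with scores of 0 to 2 in the stress-low group and 13 to 15 in the stress-high group, whereas the controls spanned scores of 0 to 6. All rats were wild type, and each library came from tissue punches of 1 animal. The BLA had 7 control, 3 stress-low and 3 stress-high libraries and the DG had 6, 3 and 3. The comparison of stress-low with stress-high rats addresses the behaviour that follows stress. The comparisons with controls join stress with the choice of rats from 1 end of the score, and cannot separate the 2. The paper states that stressed rats were also kept in a separate room at first after the stressor.

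In each region 1 control library stood apart from all others and was left out of the comparisons below. In the BLA this was animal 2, with a first principal component score of 44.52 against -16.26 to 12.78 in the other libraries, and in the DG animal 35, with 53.93 against -13.3 to 2.13. The BLA then had 6 control libraries and the DG 5, beside 3 of each stress group, and 9 animals were present in both regions. Over all libraries the total expected counts ran from 12709493 to 22801247 in the BLA and from 11656439 to 19477932 in the DG. The BLA library of animal 35 was named as a control while its treatment field read stress. It was used as a control. The comparisons with BLA controls, those between regions included, were repeated without it, which left each count of members with an unadjusted p under 0.05 as it was. The granule cell markers Prox1 and C1ql2 had median control levels of 73.3 and 351 TPM in the DG and of 2.61 and 2.80 TPM in the BLA, while Tdo2, another granule cell marker, was at 0 in both. All stress-low animals carried numbers above 20 and all stress-high animals numbers up to 20, so any difference that goes with the animal number cannot be told apart from the behaviour group in that comparison. These are bulk tissue values, in which fewer cells of a type and less RNA per cell cannot be told apart.

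Promoter sequences were searched for the sites of the 2 pathways that induce heat shock genes. The RefSeq annotation of the rat genome (build GRCr8) gave a window of 250 bases before to 50 bases after the start for 51 of the 64 members. The binding site of heat shock factor 1 is made of inverted units that read GAA or TTC. A pair of units, GAANNTTC or TTCNNGAA, each of which reads the same on either strand, was present in 15 of 51 windows (29.4%) and in 15.4% of 27457 windows of all genes. A run of 3 units, in which GAA and TTC alternate with 2 bases of any kind between them and which therefore contains the pair, was present in 5 windows (9.8%) and in 0.736% of all windows. The 5 genes were Dnaja1, Hspa8, Hspd1, Hspe1 and Hsph1. Hspd1 and Hspe1 encode the subunits of the mitochondrial chaperonin and start from the same stretch of DNA in opposite directions, so their sites are the same bases. The sites of the constitutive HSP70 gene Hspa8 (chr8:50080281-50080491, plus strand, positions -233 to -23 from the start), of the HSP110 gene Hsph1 (chr12:10427312-10427364, plus strand, positions -56 to -4) and of Hspe1 (chr9:64084242-64084299, plus strand, positions -85 to -28) are shown with the runs of units in capitals.
Hspa8: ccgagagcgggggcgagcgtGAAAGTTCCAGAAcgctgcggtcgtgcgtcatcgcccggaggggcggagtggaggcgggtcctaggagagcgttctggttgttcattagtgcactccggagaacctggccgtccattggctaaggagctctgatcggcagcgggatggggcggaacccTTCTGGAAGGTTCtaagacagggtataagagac
Hsph1: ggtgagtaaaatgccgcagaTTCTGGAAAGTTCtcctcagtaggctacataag
Hspe1: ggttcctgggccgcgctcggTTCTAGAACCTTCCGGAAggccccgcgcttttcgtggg
The ER stress element, CCAAT and CCACG with 9 bases of any kind between them, on either strand, is a site through which the unfolded protein response acts. It was present in 3 of 51 windows (5.88%) and in 0.0765% of all windows. The 3 genes encode the ER HSP70 protein Hspa5 (chr3:38452953-38453011, plus strand, positions -63 to -5), the ER HSP90 protein Hsp90b1 (chr7:23012327-23012489, minus strand, positions -196 to -34) and the ER J protein Dnajc3 (chr15:102432514-102432572, plus strand, positions -153 to -95), and the element is shown in capitals.
Hspa5: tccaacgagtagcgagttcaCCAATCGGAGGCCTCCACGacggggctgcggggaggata
Hsp90b1: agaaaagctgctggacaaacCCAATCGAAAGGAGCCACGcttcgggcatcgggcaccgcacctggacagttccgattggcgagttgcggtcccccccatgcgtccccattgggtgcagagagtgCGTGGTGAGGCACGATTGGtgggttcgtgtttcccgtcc
Dnajc3: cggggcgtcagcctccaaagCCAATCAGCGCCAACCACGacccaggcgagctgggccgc
These matches are letters in a fixed window and were not tested as sites. Dnaja2, Dnajb4, Dnajc11, Dnajc12, Dnajc15, Dnajc2, Dnajc24, Dnajc8, Hsp90aa1, Hspa12a, Hspa1b, Hspb11 and Hspb2 had no entry in the promoter table.

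The members summed to 6832 ± 253 TPM in BLA controls (SD, n = 6), which is 0.683% of all TPM, and to 7366 ± 181 TPM in DG controls (n = 5), or 0.737%. Levels are compared within a region only, since the authors' length correction differed between the tables of the 2 regions. A few members held most of the total, and the top 10 made up 68.1% in the BLA and 65.4% in the DG. In the BLA 15 members lay above 100 TPM, 36 between 10 and 100 and 12 between 1 and 10. In the DG these numbers were 17, 39 and 8. Cytosolic HSP90 took 39.4% of the members' TPM in the BLA and 35.6% in the DG, cytosolic and nuclear HSP70 and HSP110 took 15.3% and 17.5%, and ER chaperones and J proteins took 11.8% and 10.7%. Cytosolic class A and B J proteins followed with 11.3% and 12.7%, mitochondrial members with 7.73% and 9.07%, other class C J proteins with 7.13% and 7.46%, and synaptic, clathrin and endosomal J proteins with 5.44% and 4.81%. The small heat shock proteins that the name rule takes were a minor part, with 0.632% and 0.894%.

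**Figure D1:**
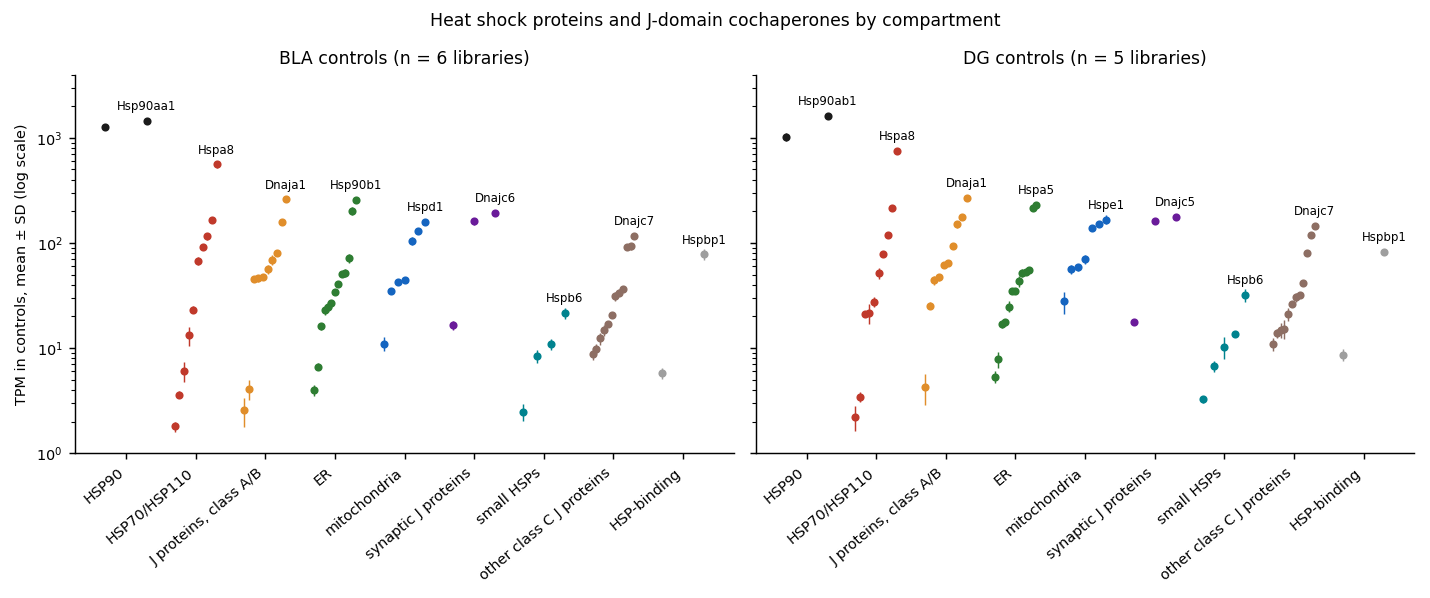
Mean TPM with SD (log scale) of each member over the control libraries of the BLA (n = 6) and the DG (n = 5), grouped by compartment, with the highest member of each group named. The 2 cytosolic HSP90 genes lie on top in both regions and the small heat shock proteins reach at most 31.9 TPM.

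Cytosolic HSP90 was represented by the inducible form Hsp90aa1 and the constitutive form Hsp90ab1. In the BLA Hsp90aa1 ran from 1304 to 1523 TPM in the controls (median 1451), and the stress-low libraries held 1631, 1545 and 1611 TPM and the stress-high libraries 1488, 1439 and 1435 TPM. All stress-low values were above all control and all stress-high values, while stress-high values lay within the control range. In the DG the 5 controls held 995.6, 1164, 948, 988.4 and 991.5 TPM, the stress-low libraries 1131, 1063 and 1129 TPM and the stress-high libraries 952.1, 1016 and 1079 TPM. There 1 control exceeded every stress-low value, and the groups overlapped. Hsp90ab1 ran from 1112 to 1317 TPM in BLA controls and from 1522 to 1762 TPM in DG controls, and its groups overlapped in every comparison of both regions.

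The most abundant HSP70 gene was Hspa8, which encodes the constitutive protein that also strips clathrin from vesicles. It ran from 504.4 to 636.5 TPM in BLA controls, with 553.6, 545.1 and 522.9 TPM in the stress-low and 542.9, 525.7 and 523.3 TPM in the stress-high libraries. In the DG its controls ran from 691.4 to 810.1 TPM, with stress-low values of 769.2, 654.3 and 720.9 TPM and stress-high values of 667.2, 722.2 and 751.1 TPM. The groups overlapped in both regions. A second identifier of the same name held 0 to 19.21 expected counts in the BLA and 650.5 to 1205 in the DG, against at least 9020 for the first, so the sum is set by the first.

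The HSP110 genes Hsph1, Hspa4 and Hspa4l encode nucleotide exchange factors of HSP70. Hsph1 averaged 165.5 ± 10.7 TPM in BLA controls and 217.1 ± 8.54 TPM in DG controls, and in both regions its stress-low and stress-high means lay within 1 control SD of these values. Hspa4 averaged 115.8 ± 8.23 and 118.6 ± 6.06 TPM. Hspa4l lay in the middle of the members by level. In the DG its controls held 44.61, 60.79, 49.41, 50.23 and 53.9 TPM, the stress-low libraries 59.82, 61.7 and 57.42 TPM and the stress-high libraries 52.46, 48.76 and 49.76 TPM. All stress-high values were below all stress-low values, and the controls spanned both groups. In the BLA the 3 groups overlapped, with 57.32 to 73.74 TPM (median 67.35) in the controls, 68.41, 74.65 and 61.9 TPM in stress-low and 65.93, 70.78 and 75.23 TPM in stress-high libraries.

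Hspa1b, the strictly stress-inducible cytosolic HSP70 gene, was low in the BLA, with 4.38 to 8.0 TPM in the controls (median 5.81), 6.54, 7.44 and 4.64 TPM in the stress-low and 4.92, 6.42 and 6.66 TPM in the stress-high libraries. In the DG its controls held 29.58, 20.26, 17.9, 20.58 and 19.42 TPM, its stress-low libraries 23.08, 19.18 and 20.6 TPM and its stress-high libraries 17.74, 20.68 and 19.4 TPM. The groups overlapped in both regions, and the highest DG value belonged to a control. The name covers 2 identifiers with the same expected count in every library, so reads were split evenly between near-identical copies and the sum was used. Hspa2, an HSP70 gene best known from the testis, held 19.77 to 22.31 TPM in the 5 DG controls, 23.28, 19.82 and 21.18 TPM in the stress-low and 20.83, 27.28 and 23.97 TPM in the stress-high libraries, where 2 of 3 stress-high values exceeded every control. The remaining members of this group in the BLA were Hspa12a (91.4 ± 5.93 TPM), Hspa14 (23.2 ± 1.80 TPM), Hspa2 (13.2 ± 2.65 TPM), Hspa12b (3.60 ± 0.280 TPM) and Hspa1l (1.80 ± 0.204 TPM).

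The J proteins of classes A and B deliver unfolded substrates to HSP70. Dnaja1 and Dnaja2, the general cytosolic class A cochaperones, led them with 259.7 ± 13.3 and 159.6 ± 6.97 TPM in BLA controls and 268.1 ± 9.34 and 177.1 ± 7.26 TPM in DG controls. Dnaja1 held 284.4, 272.3 and 263.4 TPM in the stress-low and 258.4, 246.7 and 259.3 TPM in the stress-high libraries of the BLA, and 278.6, 275.2 and 286.4 against 250.8, 271.6 and 274.9 TPM in the DG. All its stress-high values were below all its stress-low values in both regions, by a narrow margin in the DG. Dnaja2 held 190.1, 192.7 and 185.6 TPM in the DG stress-low libraries, above the control range of 164.4 to 182.2 TPM and above the stress-high values of 180.0, 173.4 and 178.6 TPM. Dnajb1, the inducible HSP40, averaged 46.0 ± 3.46 TPM in the BLA and 44.2 ± 4.39 TPM in the DG, and Dnajb2, which is enriched in neurons and reduces aggregation, 81.0 ± 4.80 and 63.9 ± 1.64 TPM. Dnajb5 averaged 68.7 ± 7.65 TPM in the BLA and 149.8 ± 11.7 TPM in the DG. Dnajb3 and Dnajb13 were the lowest of the group in the BLA, with 2.57 ± 0.803 and 4.11 ± 0.874 TPM.

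In the ER, Hsp90b1 (GRP94), Hspa5 (BiP) and Dnajc10, a J protein that reduces disulfide bonds, led in the BLA with 257.2 ± 14.8, 201.7 ± 18.8 and 72.1 ± 6.93 TPM. In the DG Hspa5 (227.9 ± 18.5 TPM) and Hsp90b1 (214.2 ± 13.1 TPM) were followed by Dnajb11 (55.4 ± 2.87 TPM), the luminal J protein of BiP. The inducible ER J protein Dnajb9 was lower, with 23.0 ± 2.43 TPM in the BLA and 16.8 ± 1.40 TPM in the DG. Dnajb9 held 16.38, 19.15, 16.05, 15.54 and 16.73 TPM in DG controls, 19.11, 21.52 and 18.07 TPM in stress-low and 20.9, 17.2 and 16.69 TPM in stress-high libraries, so that 1 control lay among the stress-low values. Mitochondrial members were led by the chaperonin subunits Hspd1 and Hspe1 and by the matrix HSP70 Hspa9. Hspd1 averaged 158.6 ± 6.17 TPM, Hspa9 131.2 ± 7.70 TPM and Hspe1 104.3 ± 9.69 TPM in the BLA, and 151.7 ± 4.97, 137.2 ± 6.87 and 167.0 ± 17.1 TPM in the DG. Dnajc11, a J protein tied to the inner membrane organizing complex of mitochondria, held 63.12, 52.71, 61.03, 58.66 and 56.47 TPM in DG controls, 52.26, 50.69 and 51.61 TPM in stress-low and 52.3, 56.24 and 55.5 TPM in stress-high libraries. All stress-low values were below those of the 5 controls in use, and the lowest of these controls exceeded the highest stress-low value by less than 1 TPM. The left-out control held 48.63 TPM, below every stress-low value, so the separation rests on leaving it out.

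The J proteins of the synapse and of endosomes were among the more abundant members. Dnajc6 (auxilin), which recruits HSP70 to clathrin coats, averaged 194.2 ± 12.1 TPM in BLA controls and 161.1 ± 7.57 TPM in DG controls. Dnajc5, the cysteine string protein of synaptic vesicles, averaged 161.2 ± 11.8 and 175.5 ± 7.52 TPM. Dnajc13, which acts on endosomes, was lower, with 16.4 ± 1.59 and 17.5 ± 0.966 TPM. Among the small heat shock proteins, which hold unfolded proteins without ATP, Hspb6 was highest with 21.5 ± 2.54 TPM in the BLA and 31.9 ± 4.23 TPM in the DG. Hspb11, which carries the family name and is a component of intraflagellar transport, followed with 10.8 ± 1.24 and 13.6 ± 0.505 TPM, and then Hspb8 with 8.37 ± 1.21 and 10.3 ± 2.49 TPM. Hspb1 (HSP27) ran from 1.99 to 2.91 TPM in BLA controls, with 5.99, 3.17 and 2.5 TPM in the stress-low and 3.88, 2.36 and 1.99 TPM in the stress-high libraries. A single stress-low library stood apart from the others, and the groups overlapped. Among the other class C J proteins, Dnajc7, a cochaperone of both HSP70 and HSP90, averaged 117.5 ± 6.95 TPM in the BLA and 143.9 ± 9.39 TPM in the DG, Dnajc8, a spliceosome-associated J protein, 92.2 ± 5.85 and 118.6 ± 5.20 TPM, and Dnajc27, which is fused to a small GTPase domain, 92.7 ± 6.11 and 80.6 ± 4.64 TPM. Of the proteins that bind heat shock proteins and carry a matching name, the exchange factor Hspbp1 averaged 77.7 ± 9.00 and 82.0 ± 5.12 TPM and Hspbap1 5.82 ± 0.689 and 8.61 ± 1.11 TPM.

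The members varied little between control animals. The median coefficient of variation of TPM over the 63 members of the BLA was 7.78%, against 11.6% over all genes with at least 1 TPM, and over the 64 of the DG it was 7.83% against 10%. Among genes of at least 10 TPM the medians were 7.12% for 51 members and 9.56% for all genes in the BLA, and 6.51% for 56 members and 8.06% for all genes in the DG. In each region 43 members stayed under 10%, and 4 in the BLA and 6 in the DG exceeded 20%. The most variable members were Dnajb3 (31.3%), Hspa1b (21.6%), Dnajb13 (21.3%), Hspa2 (20.1%) and Hspb1 (18.3%) in the BLA and Dnajb3 (33.1%), Hspa12b (27.1%), Hspb8 (24.2%), Dnajc30 (23.8%) and Hspa1b (21.4%) in the DG. Hspa1b was thus among the 5 most variable in both. In the DG its spread came mainly from animal 2, at 29.58 TPM against 17.9 to 20.58 TPM in the other controls. That of Dnajb3 in the DG came mainly from animal 32, at 6.70 TPM against 3.11 to 4.06 TPM. Over all libraries in use, the highest value of a member was less than 1.5 times its lowest for 52 members in each region.

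**Figure D2:**
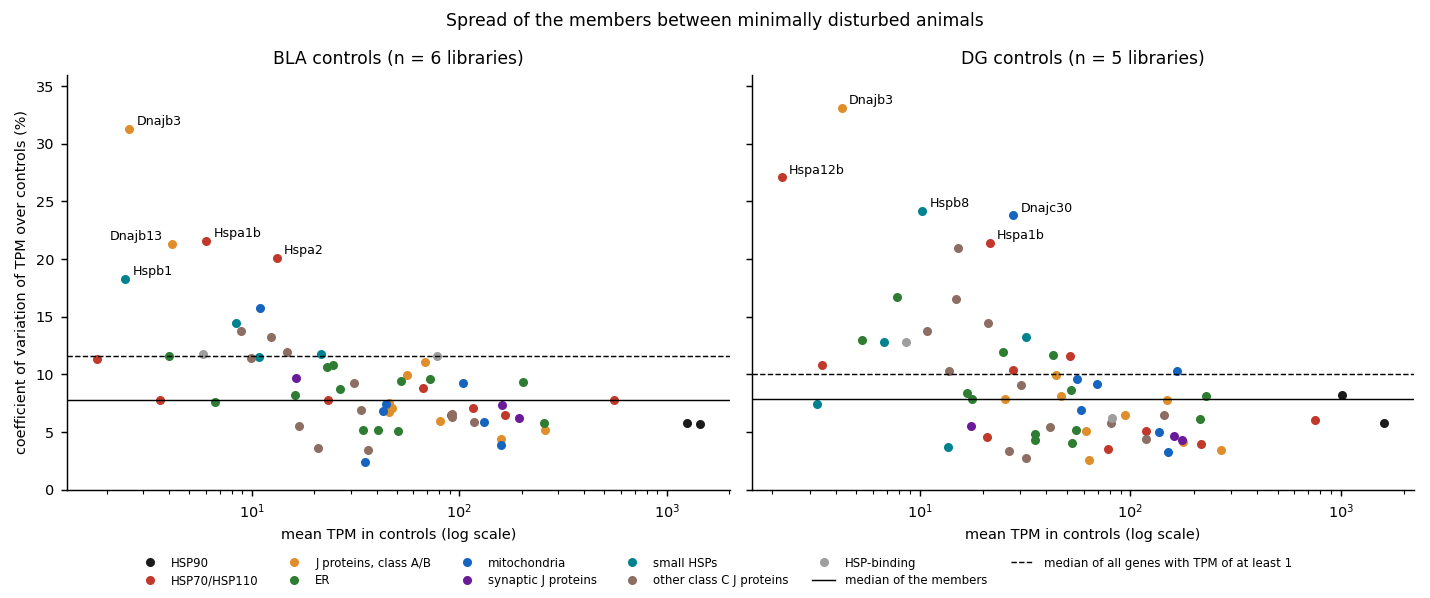
Coefficient of variation of TPM over the control libraries (percent) against mean control TPM (log scale) for each member in the BLA (n = 6) and the DG (n = 5). The solid line is the median of the members, 7.78% and 7.83%, and the dashed line the median of all genes with at least 1 TPM, 11.6% and 10%. The variable members, Dnajb3 and Hspa1b among them, are low in level. In the DG the spread of Dnajb3 and that of Hspa1b each came mainly from 1 control.

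In the BLA no member differed between groups at an adjusted p under 0.05 (edgeR quasi-likelihood test on expected counts, Benjamini-Hochberg adjustment over 14953 genes), and neither did any other gene, a background of 0% each time. With no adjustment, at p under 0.05, the count was also 0 of 63 members in all 3 comparisons. Of all genes, 1.91% had such a p for stress-low versus stress-high (0.983% higher and 0.93% lower in the second group), 2.69% for control versus stress-low (1.23% and 1.46%) and 2.53% for control versus stress-high (1.24% and 1.29%). DESeq2 gave 0 in all 3 comparisons at either threshold as well. The median log2 fold change of the members was -0.0061 for stress-high over stress-low, 0.0051 for stress-low over control and 0.0076 for stress-high over control, beside 0.0007, 0.0013 and 0.0014 over all genes. The log2 fold change was above 0 in 30, 33 and 34 of the 63 members, beside 50.2%, 50.6% and 50.5% of all genes. The median size of the log2 fold change was 0.038, 0.040 and 0.038 for the members, and 0.071, 0.069 and 0.069 for all genes. The members had to reach 1 TPM, whereas the genes tested did not. Levels were not matched, so the smaller size cannot be read as a trait of the members. The 95% confidence interval lay within ±0.25 on the log2 scale, a 1.19-fold change, for 33, 41 and 44 of the 63 members, and within ±0.5 for 56, 59 and 57. For these members a change larger than the bound is outside the interval. With 3 animals in a stress group, changes inside a member's interval could not be told from none.

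In the comparison of stress-low with stress-high rats in the BLA, the members with the smallest unadjusted p were Dnajb14, Hspa12b, Hspa4l, Dnajc8 and Hspbap1. Dnajb14, an ER membrane J protein, averaged 25.45 ± 1.025 TPM in stress-low and 27.6 ± 4.53 TPM in stress-high rats (n = 3 each), a log2 fold change of 0.15 ± 0.092 SE. The log2 fold changes of the other 4 were 0.17 ± 0.14 SE, 0.093 ± 0.082 SE, -0.098 ± 0.091 SE and -0.21 ± 0.19 SE, and the adjusted p was 1.0 for all 5. By TPM, 4 members had groups that did not overlap, Dnajc8, Dnajc3, Hsp90aa1 and Dnaja1, which is 6.35% of 63 against 5.78% of all genes. All 4 were lower in stress-high rats, as were most of the other genes with separated groups in this comparison (4.69% of all genes lower and 1.09% higher). Dnajc8 held 99.08, 93.11 and 104.9 TPM in stress-low and 89.1, 89.57 and 90.51 TPM in stress-high libraries. For Hsp90aa1 the means were 1596 ± 45.2 and 1454 ± 29.4 TPM. The exact permutation p of each of the 4 was 0.1, the smallest that 3 against 3 animals allow, and any groups of 3 without overlap give it.

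In the BLA of stress-low rats compared with controls, Hspb1 had the largest log2 fold change, 0.60 (95% confidence interval -0.079 to 1.27, adjusted p 1.0), with 3.89 ± 1.85 TPM against 2.46 ± 0.451 TPM (exact permutation p = 0.0833). Its expected counts summed to only 325 over all BLA libraries. Hspb11 followed with 13.7 ± 2.77 against 10.8 ± 1.24 TPM, a log2 fold change of 0.30 ± 0.17 SE (exact permutation p of the TPM = 0.0476). Then came Dnajc21, a J protein of ribosome assembly (0.16 ± 0.11 SE), Hsp90aa1 (0.12 ± 0.076 SE) and DNAJC9, a histone chaperone (0.11 ± 0.074 SE). By TPM the groups of Hsp90aa1 and DNAJC9 did not overlap, both higher in stress-low rats, which is 3.17% of the members against 1.34% of all genes, with 1.08% higher and 0.261% lower. The means were 1596 ± 45.2 against 1438 ± 82.2 TPM for Hsp90aa1 (exact permutation p = 0.0238, two-sided) and 23.0 ± 0.944 against 20.7 ± 0.743 TPM for DNAJC9 (exact permutation p = 0.0119, the smallest that 6 against 3 animals allow). Both p-values are unadjusted. Groups without overlap put them at or near the smallest possible, so they add nothing to the separation. The left-out control held 24.58 TPM of DNAJC9, above every stress-low value, so the separation of DNAJC9 rests on leaving it out. The count at an unadjusted p under 0.05 depended on single libraries. Such counts, here and below, stand without the share of all genes unless it is printed, and are no result about the members. Without stress-low animal 30 it was 2, Hsp90aa1 (log2 fold change 0.18) and Hspb11 (0.46), and without stress-low animal 34 it was 1, Hspb1 (0.81). Without stress-low animal 22, which had the highest Hspb1 level, the log2 fold change fell to 0.16 for Hspb1 and 0.13 for Hspb11, and no member had such a p. Animal 30 also had the highest oligodendrocyte marker sum of the BLA, 4018 TPM against 2189 to 3021 TPM in the controls, and the part of this in the result was not tested.

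In the BLA of stress-high rats compared with controls, the smallest unadjusted p values belonged to Hspb11, Hspb8, Dnajb4, Dnajc13 and Hspa1l, each with an adjusted p of 1.0. Hspb11 averaged 13.1 ± 2.14 against 10.8 ± 1.24 TPM, a log2 fold change of 0.29 ± 0.17 SE. Hspb8, a partner of the exchange factor Bag3, averaged 7.17 ± 1.19 against 8.37 ± 1.21 TPM, a log2 fold change of -0.21 ± 0.14 SE. For the other 3 the log2 fold changes were -0.099 ± 0.067 SE, 0.089 ± 0.068 SE and -0.21 ± 0.17 SE. Hspa1l was the 1 member whose TPM did not overlap, with 1.45, 1.54 and 1.64 TPM in stress-high libraries and 1.65 to 2.18 TPM in controls, which is 1.59% of the members against 0.91% of all genes, with 0.562% lower and 0.348% higher. The left-out control held 1.64 TPM of Hspa1l, level with the highest stress-high value, so this separation rests on leaving it out. The count at an unadjusted p under 0.05 was 1 without control animal 32 (Dnajb4, log2 fold change -0.14) and 1 without stress-high animal 19 (Hspb8, -0.37). Without stress-high animal 7 the log2 fold change of Hspb11 was 0.11.

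**Figure D3:**
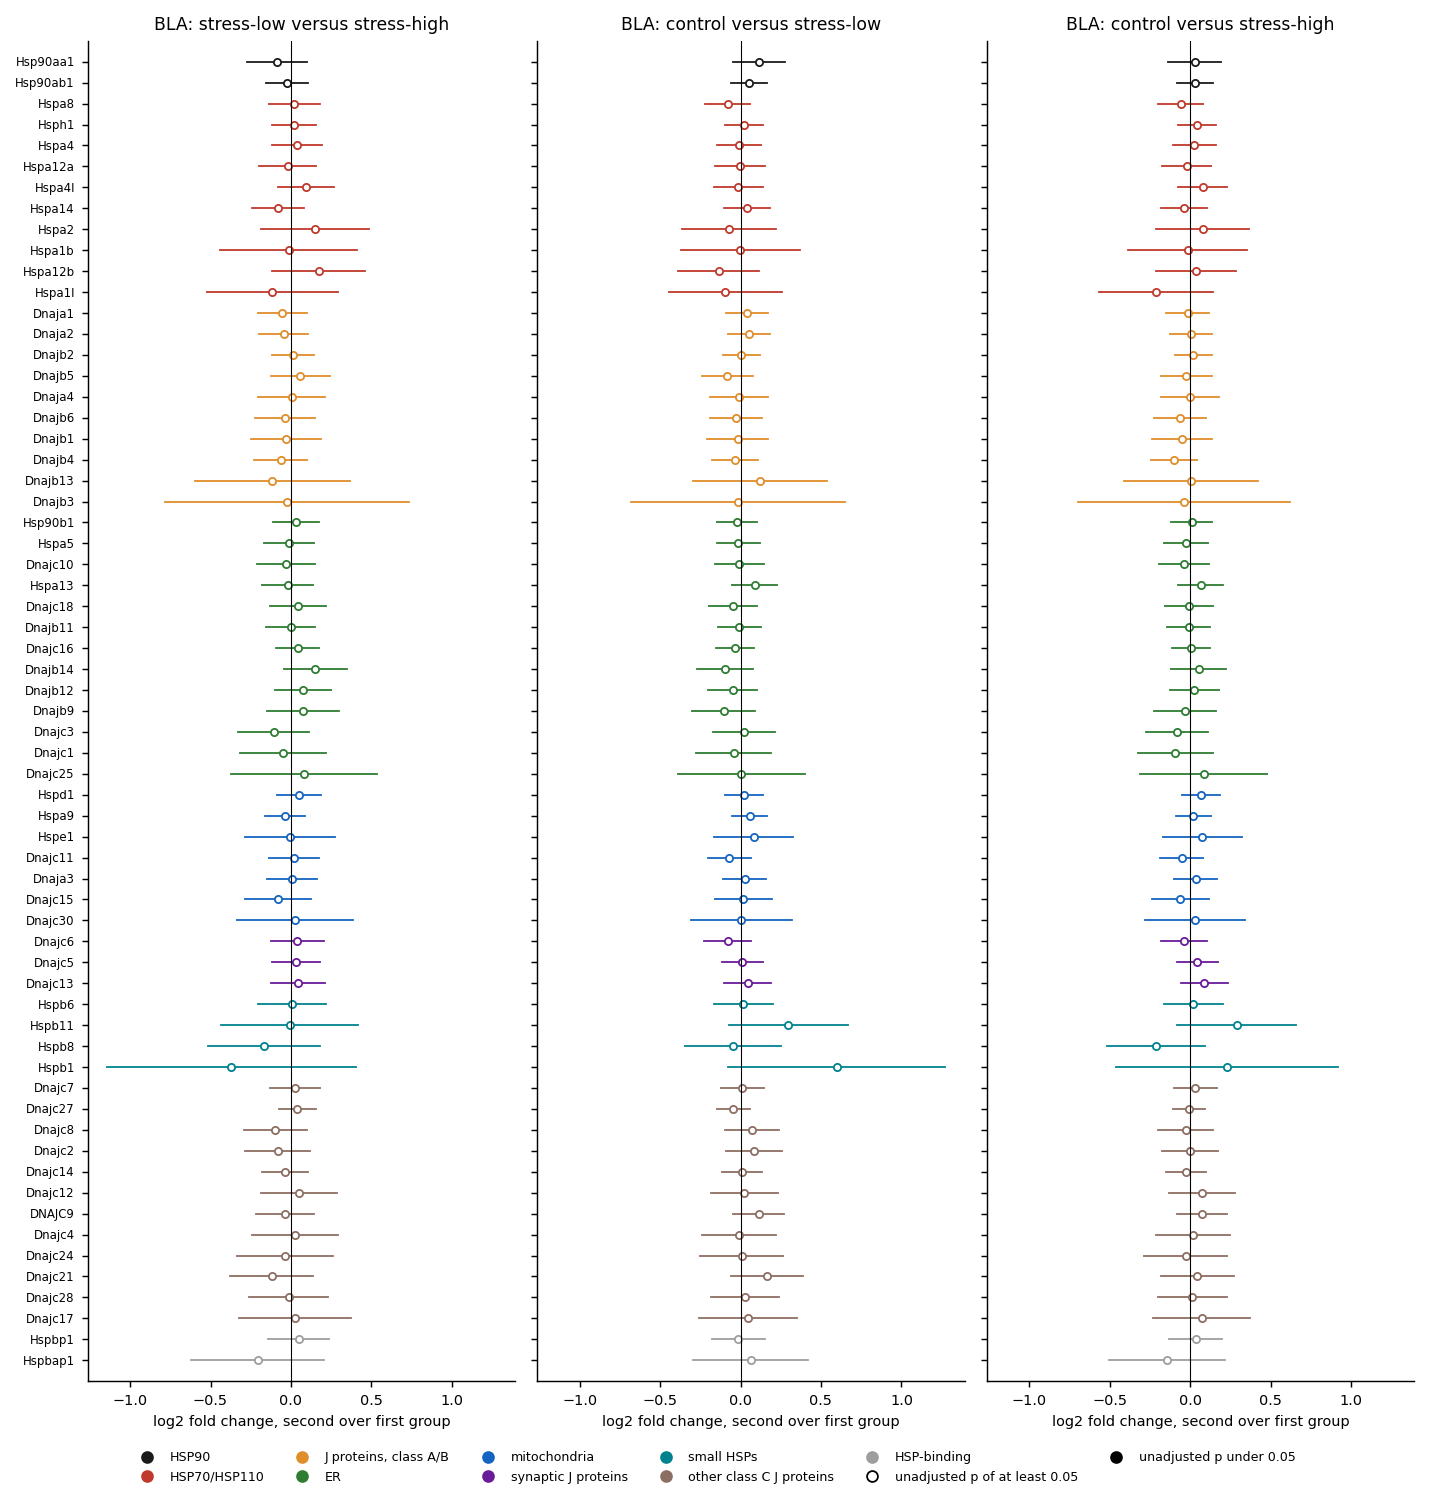
log2 fold change (second group over first) with 95% confidence interval of each of the 63 members in the 3 comparisons of the BLA, from the edgeR fit, coloured by compartment. A filled point would mark an unadjusted p under 0.05, and none of the 63 reached it in any of the 3 comparisons.

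In the DG no member passed an adjusted p of 0.05 either, among 13850 genes tested, and the background was again 0%. At an unadjusted p under 0.05 there was 1 of 64 members in stress-low versus stress-high (Hspa4l, 1.56% against 3.16% of all genes). There were 2 in control versus stress-low (Dnajc11 and Hspa4l, 3.12% against 7.01%) and 1 in control versus stress-high (Hspa2, 1.56% against 2.23%). Counts this small cannot tell these shares from those of all genes. By direction, 1.73% of all genes were higher and 1.43% lower in the first of these comparisons, 4% and 3.01% in the second and 1.11% and 1.12% in the third. DESeq2 gave the same members. The median log2 fold change of the members was 0.0024, 0.0057 and 0.0058, beside 2.31e-05, -0.0027 and 0.0016 over all genes. It was above 0 in 33, 32 and 38 of the 64 members, beside 50%, 49.1% and 50.7% of all genes. Its median size was 0.059, 0.055 and 0.038 for the members and 0.081, 0.089 and 0.063 for all genes, again with levels not matched. The 95% confidence interval lay within ±0.25 for 29, 32 and 41 of the 64 members and within ±0.5 for 56, 57 and 61.

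Hspa4l was the member with the smallest p between stress-low and stress-high rats in the DG. It averaged 59.6 ± 2.15 TPM in stress-low and 50.3 ± 1.91 TPM in stress-high libraries, a log2 fold change of -0.24 (95% confidence interval -0.47 to -0.015, adjusted p = 0.999). The exact permutation p of the TPM was 0.1, the smallest possible, which any groups of 3 without overlap give. The study singled out this gene from the same libraries, so its direction here is not independent evidence. Over 17 alternatives its log2 fold change stayed between -0.29 and -0.21 and its unadjusted p between 0.00381 and 0.132, so that it crossed 0.05 in both directions. With the animal number as a covariate the members under 0.05 were Dnajb5 and Hspa14, and Hspa4l was not among them. Animal number and group coincide in the stressed rats, so only the controls set this covariate. The fit therefore cannot decide whether a difference goes with the group or with the animal number. Next came Dnajb5, with 137.5 ± 9.20 against 149.8 ± 3.999 TPM and a log2 fold change of 0.13 ± 0.072 SE. Hspa2 (0.17 ± 0.099 SE), Hspb8 (0.36 ± 0.21 SE) and Hspb2, a small heat shock protein known from muscle (0.42 ± 0.28 SE), followed. With the covariate the value of Hspb8 was 0.0062. Without stress-low animal 33 no member had an unadjusted p under 0.05. Without stress-low animal 22 there were 3 (Dnajb13, Hspa2 and Hspb8, without Hspa4l) and without stress-high animal 7 there were 2 (Hspa2 and Hspa4l). Without stress-high animal 19 or 20 the 1 member was Dnajc3 or Hspb8 in place of Hspa4l. The share of all genes without these libraries is not given, so these counts are no result about the members. By TPM, 7 members had groups that did not overlap (10.9% against 8.64% of all genes). Hspa4l, Dnaja2, Dnajc8 and Dnaja1 were lower in stress-high rats (background 4.47%) and Dnajb5, Dnajc11 and Dnajb1 were higher (background 4.17%). Dnaja1 and Dnajc8 were thus separated in the same direction in both regions, 2 of 4 in the BLA (50.0%) and 2 of 7 in the DG (28.6%), but 2 of 3 stress-low and all 3 stress-high animals are the same rats in both.

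In the DG of stress-low rats compared with controls, Dnajc11 averaged 51.5 ± 0.789 against 58.4 ± 4.04 TPM, a log2 fold change of -0.16 (95% confidence interval -0.29 to -0.039, adjusted p = 0.709, exact permutation p of the TPM = 0.0536). Hspa4l averaged 59.6 ± 2.15 against 51.8 ± 6.02 TPM, a log2 fold change of 0.21 (95% confidence interval 0.014 to 0.42, adjusted p = 0.709, exact permutation p of the TPM = 0.107). Because both comparisons of Hspa4l use the same 3 stress-low libraries, they do not support each other. Dnajb9 averaged 19.6 ± 1.77 against 16.8 ± 1.40 TPM, a log2 fold change of 0.23 ± 0.11 SE. Hspb2 averaged 4.77 ± 0.832 against 6.74 ± 0.859 TPM, a log2 fold change of -0.52 ± 0.25 SE (exact permutation p of the TPM = 0.0357). Its expected counts summed to only 229 over all DG libraries. Hspa4, a close relative of Hspa4l, averaged 128.8 ± 7.30 against 118.6 ± 6.06 TPM, a log2 fold change of 0.13 ± 0.065 SE. By TPM, Dnaja2 was higher without overlap (exact permutation p = 0.0179, the smallest that 5 against 3 animals allow), and Dnajc11 and Dnajb2 were lower, 4.69% of the members against 3.7% of all genes (1.93% higher and 1.77% lower). The p of Dnaja2 is unadjusted and adds nothing to the separation for which it is named here. The left-out control held 48.63 TPM of Dnajc11 and 60.33 TPM of Dnajb2. With it the groups of both genes would overlap. The count rested on single libraries here as well. Control animal 14 had the highest control level of Hsp90aa1 and of Hspa4l, and without it 7 members (10.9%, against 11.3% of all genes tested) had an unadjusted p under 0.05, which were Hspa4l (log2 fold change 0.30, adjusted p = 0.183), Hsp90aa1 (0.21), Hspa4 (0.17), Dnajb9 (0.31), Dnaja2 (0.13), Dnajc10 (0.14) and Dnajc11 (-0.19). Without stress-low animal 22 the count was 4 (Dnajb13, Dnajc11, Hspa4 and Hspb8), and without stress-low animal 33 it was 1 (Dnajc11). For these the share of all genes is not given, so they are no result about the members. Dnajc11 was among the members whichever of the 8 libraries was left out. With animal number above 20 as a covariate, however, the 2 members were Dnajb5 and Dnajb9, without Dnajc11 and Hspa4l. Only the controls set this covariate, since each stress group lies on 1 side of it, so this fit cannot decide about either gene. In the main fit with single libraries left out, Hspa4l was not among the members without control animal 2, 17 or 28 or without stress-low animal 22 or 33.

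In the DG of stress-high rats compared with controls, Hspa2 averaged 24.0 ± 3.23 against 20.9 ± 0.954 TPM, a log2 fold change of 0.22 ± 0.087 SE (adjusted p 1.0, exact permutation p of the TPM = 0.0714). Hspa14 (0.12 ± 0.076 SE), the ER J protein Dnajc16 (-0.078 ± 0.053 SE), Dnajb1 (0.093 ± 0.071 SE) and Dnajc18 (0.10 ± 0.081 SE) came next. No member had groups without overlap, against 1.47% of all genes (0.585% higher and 0.888% lower). The difference in Hspa2 rested on stress-high animal 19, which held 27.28 TPM, and without it no member had an unadjusted p under 0.05. The same was so without control animal 17, whereas without control animal 2 there were 2 members (Dnajb1 and Hspa2) and without control animal 28 there were 2 (Hspa14 and Hspa2). Again no share of all genes is given, so these counts are no result about the members.

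**Figure D4:**
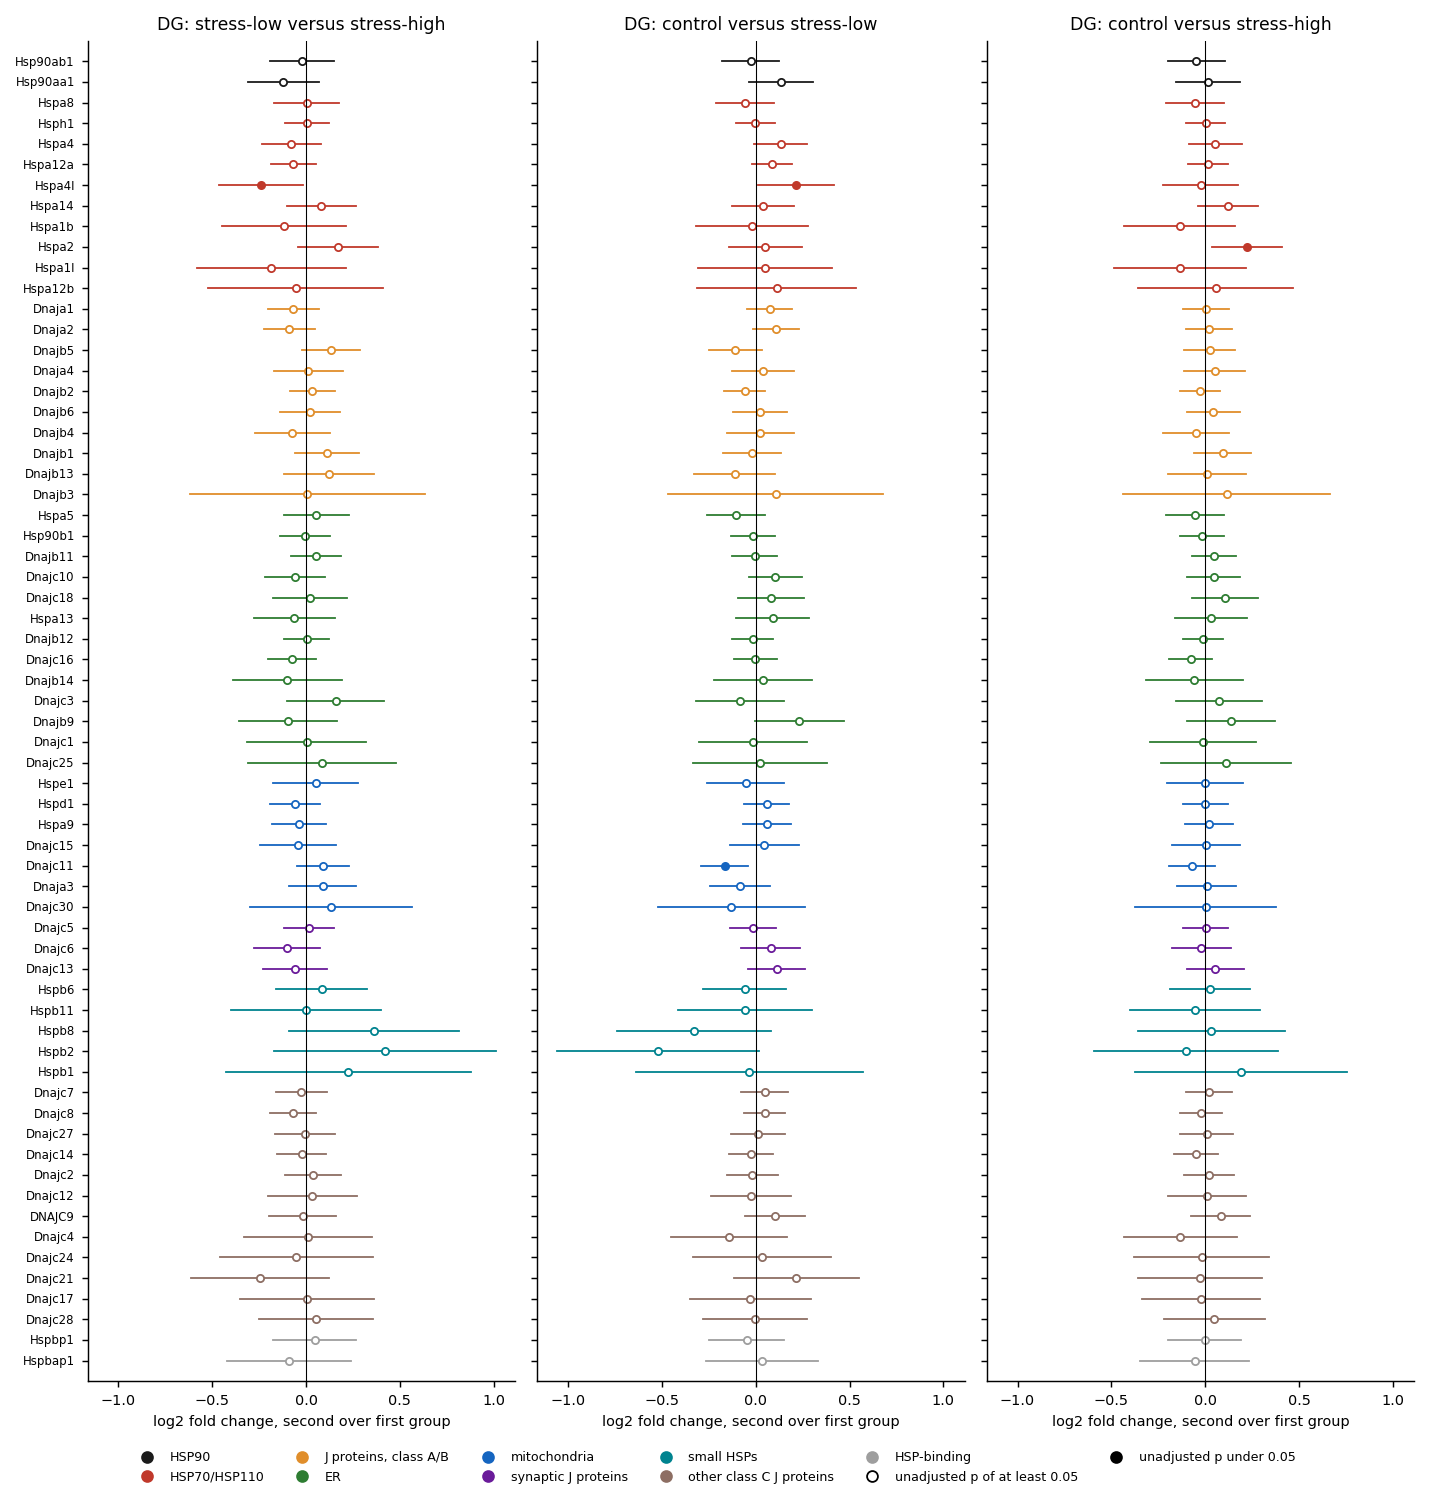
log2 fold change (second group over first) with 95% confidence interval of each of the 64 members in the 3 comparisons of the DG, from the edgeR fit, coloured by compartment. Filled points mark an unadjusted p under 0.05, which Hspa4l reached in the first, Dnajc11 and Hspa4l in the second and Hspa2 in the third comparison.

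**Figure D5:**
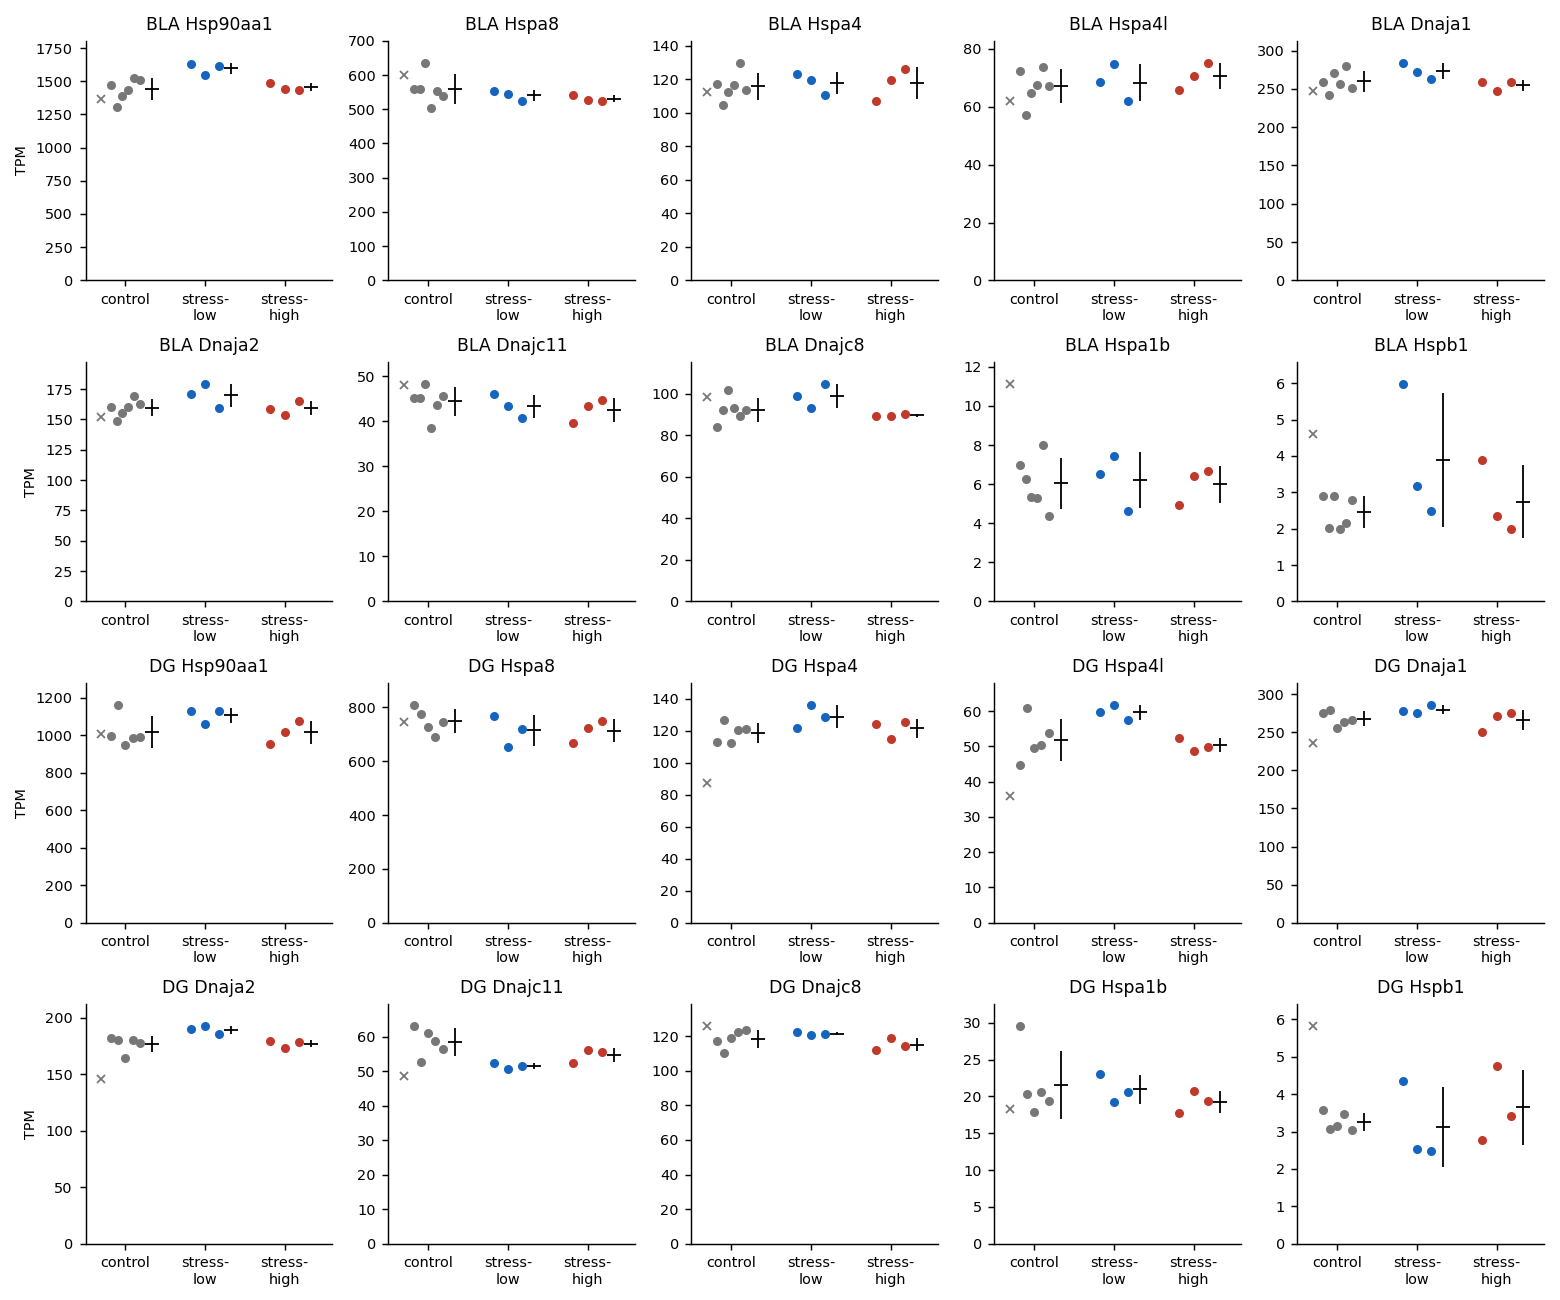
TPM of 10 members in every library of the BLA (upper rows) and the DG (lower rows), one point per animal, with mean and SD of each group beside the points and the left-out control as a cross. The stress-low points of Hsp90aa1 in the BLA lie above all others, those of Hspa4l in the DG lie above the stress-high points, and most other panels overlap.

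By compartment, the members with an unadjusted p under 0.05 were 1 of 10 in each DG comparison for HSP70 and HSP110 and 1 of 7 mitochondrial members for DG control versus stress-low, and 0 in all other groups, beside 3.16%, 7.01% and 2.23% of all genes in the 3 DG comparisons. All 5 DG members grouped by name as small heat shock proteins, Hspb11 among them, had a log2 fold change below 0 in stress-low rats against controls (median -0.059, range -0.52 to -0.033). Their sums were 65.8 ± 6.32 TPM in controls and 59.3 ± 2.56 TPM in stress-low libraries, and these overlapped. Hspb1 and Hspb2 among them rest on few reads, with 248 and 229 expected counts over all DG libraries. Of all genes, 49.1% lay above 0 in that comparison. The summed cytosolic HSP90 level was 2693 ± 112 TPM in BLA controls, 2928 ± 34.0 TPM in stress-low and 2729 ± 69.4 TPM in stress-high libraries, with stress-low values of 2941, 2890 and 2954 TPM above the highest control of 2794 TPM. In the DG it was 2624 ± 110, 2668 ± 140 and 2549 ± 227 TPM, and the groups overlapped. Cytosolic and nuclear HSP70 and HSP110 summed to 1046 ± 52.6, 1041 ± 39.8 and 1026 ± 26.6 TPM in the BLA and to 1291 ± 55.2, 1276 ± 55.3 and 1256 ± 56.4 TPM in the DG. The ER members summed to 809.5 ± 48.4, 819.1 ± 22.2 and 803.9 ± 52.2 TPM in the BLA and to 788.4 ± 25.3, 774.8 ± 12.6 and 775.5 ± 30.8 TPM in the DG. In mitochondria the sums were 527.7 (range 515.4 to 541.6), 554.3 ± 15.8 and 537.6 ± 15.7 TPM in the BLA, and in the DG 667.7 ± 35.5, 659.3 ± 17.8 and 657.8 ± 20.9 TPM. For the synaptic and endosomal J proteins they were 371.8 ± 22.4, 371.6 ± 10.5 and 372.3 ± 45.1 TPM in the BLA and 354.0 ± 8.07, 360.2 ± 9.01 and 348.4 ± 28.4 TPM in the DG. These sums are descriptions with no test.

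Members were also read as targets of the 2 pathways that induce them. Of 19 heat-inducible targets of heat shock factor 1, of which 12 are members in name, 18 were tested. In the BLA none of the 18 had an unadjusted edgeR p under 0.05 in any comparison. In the DG 1 did in stress-low versus stress-high and 1 in control versus stress-low, both times Hspa4l, and 0 did in control versus stress-high (3.16%, 7.01% and 2.23% of all genes). The median log2 fold changes of the list were 0.020, -0.0050 and -0.0022 for the 3 BLA comparisons and -0.047, -0.019 and -0.018 for those of the DG. The heat shock factors themselves, Hsf1, Hsf2 and Hsf4, had no unadjusted p under 0.05. Hsf1 averaged 14.3 ± 1.58, 15.0 ± 1.68 and 15.1 ± 3.05 TPM in control, stress-low and stress-high libraries of the BLA and 24.7 ± 1.19, 22.5 ± 3.24 and 25.7 ± 1.77 TPM in the DG.

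Of 19 targets of the unfolded protein response, all tested, Herpud1, a membrane protein of ER-associated degradation, was the 1 with an unadjusted p under 0.05 in the BLA, in control versus stress-high (30.6 ± 2.61 against 34.3 ± 5.04 TPM, log2 fold change 0.16 ± 0.070 SE, adjusted p 1.0, against 2.53% of all genes). In the DG 2 of the 19 had one, where 7.01% of all genes had one and 3.01% were lower, and both were lower in stress-low rats than in controls, the disulfide isomerase Pdia4 (24.5 ± 1.05 against 27.8 ± 2.41 TPM, -0.17 ± 0.076 SE) and Sdf2l1, a partner of ER J proteins (10.01 ± 0.757 against 13.1 ± 2.34 TPM, -0.37 ± 0.16 SE), each with an adjusted p of 0.709. None of the 7 members on this list, Hspa5, Hsp90b1, Hspa13, Dnajb9, Dnajb11, Dnajc3 and Dnajc10, was among them. Of 32 partners of HSP70 and HSP90 outside the name rule, 0 had an unadjusted p under 0.05 in the BLA and 1, Fkbp5, in the DG. Fkbp5 had it in stress-low versus stress-high and in control versus stress-high, where 3.16% and 2.23% of all genes had one. Fkbp5 encodes an HSP90 cochaperone that lowers the hormone affinity of the glucocorticoid receptor and is itself induced by glucocorticoids. It held 61.09, 46.82 and 44.2 TPM in DG stress-high libraries, 39.65, 43.23 and 41.67 TPM in stress-low libraries and 35.34 to 48.1 TPM in controls, with a log2 fold change of 0.30 ± 0.13 SE over stress-low (adjusted p = 0.999) and 0.26 ± 0.11 SE over controls (adjusted p 1.0). Only the highest of the 3 stress-high values, that of animal 7, exceeded every control, and without it the log2 fold changes were 0.12 and 0.085. None of the 8 subunits of the cytosolic chaperonin TRiC had an unadjusted p under 0.05 in either region.

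Whether the regions responded differently was tested as the difference of their log2 fold changes in 1 edgeR fit over both regions (15152 genes, 63 shared members). This fit treated the BLA and DG libraries of 1 animal as independent, although same-animal libraries deviated together, so its SE and p ignore that pairing. No member passed an adjusted p of 0.05, against 0% of all genes. At an unadjusted p under 0.05 there was 1 member for stress-low versus stress-high, Hspa4l (DG minus BLA -0.32 ± 0.14 SE, adjusted p 1.0, background 1.9%), 1 for control versus stress-low, Dnajb9 (0.33 ± 0.14 SE, adjusted p 1.0, background 3.13%) and 0 for control versus stress-high (background 1.76%). With the animals present in both regions as a block, the difference in Hspa4l was -0.34 ± 0.11 SE (adjusted p 1.0), and for control versus stress-low the members were Hspa1b (0.44 ± 0.18 SE) and Hspa4l (0.22 ± 0.10 SE) in place of Dnajb9. For stress-low versus stress-high the count was 3 without BLA stress-high animal 7 (Dnajc3, Hspa4l and Hspb1) and 0 without DG stress-low animal 33, and Hspb8 or Dnajc3 took the place of Hspa4l without BLA animal 34 or 19 or without DG animal 22, 19 or 20. For control versus stress-low it was 2 without BLA stress-low animal 30 (Dnajb9 and Hspb11), 0 without BLA stress-low animal 22 or 34 and 0 without DG stress-low animal 33. With single controls left out, an alternative added after seeing the data, it was 2 without BLA control 17 or 27 or DG control 14 (Dnajb9 and Hspa4l each time), 0 without BLA control 28 or DG control 17 or 28, and 1 without any of the other 5, Dnajb9 each time. For control versus stress-high it was 1 without DG stress-high animal 19 (Dnajc3) and 1 without DG control 28 (Hspa14). The counts with libraries left out stand without the share of all genes, and are no result about the members.

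For 6 inducible or abundant genes the levels of the 9 animals present in both regions were compared, as log2 of TPM plus 1. Hsph1 had a Pearson r of 0.75 (exact permutation p = 0.0242, adjusted over the 6 genes 0.0726) and a Spearman rho of 0.78 (exact permutation p = 0.0172, adjusted 0.103). Dnajb1 had r = -0.80 (exact permutation p = 0.0117, adjusted 0.0702) and rho = -0.70 (exact permutation p = 0.0433, adjusted 0.130). The other 4 were Hsp90aa1 (r = 0.60, rho = 0.55), Hspa8 (r = 0.47, rho = 0.57), Hspb1 (r = 0.24, rho = -0.19) and Hspa1b (r = 0.12, rho = 0.017), with exact permutation p from 0.0899 to 0.982. None passed the adjustment. Without the 2 animals farthest from the BLA median, r fell to 0.47 for Hsph1 and was -0.63 for Dnajb1, with exact permutation p of 0.287 and 0.149. The 7 animals kept span a narrower range of levels, so this cannot decide whether either relation holds. With the left-out controls included (11 animals), r was 0.24 for Hsph1 and -0.060 for Dnajb1, whereas it was 0.72 for Hspa1b (permutation p = 0.0214, adjusted 0.0714) and 0.68 for Hspa8 (permutation p = 0.0238, adjusted 0.0714). Again none passed the adjustment. Without the 2 animals farthest from the BLA median r was 0.12 for Hspa1b and 0.28 for Hspa8, again over a narrower range of levels. The animals come from all 3 groups.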

How the data were processed

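Poly-A RNA of tissue punches was sequenced from 25 libraries. Per the submitters' processing notes and the study's methods, the authors aligned reads to the Rn5 build with STAR 2.6.0a and deposited, for each gene and library, an expected count and a TPM value from RSEM 1.3.1. For this report, expected counts were summed by gene name over the whole table, which also holds 5742 identifiers without a name, and rounded. Each region was fitted in edgeR 4.0.16 (R 4.3.3) with 3 group means, TMM scaling, filterByExpr with a minimum count of 10 and Benjamini-Hochberg adjustment over all genes tested, in place of the study's own test, which was not run. Single TPM values were compared by exact two-sided permutation, without adjustment. The control farthest from the median of the first principal component was left out, since the study left out 1 control per region. Replicates were animals, and p-values measure the spread between them. Same-animal libraries of the 2 regions deviated together (r 0.0989 to 0.248 over 9 animals), whereas the replicate numbers of the titles did not pair libraries. Named members were the 3 highest of each compartment, the 5 with the smallest p in each comparison, heat shock factor targets, Hspa4l and the 5 most variable in controls. Those whose values were met first in alternatives or in separated groups were chosen after their values were seen. The members and lists were chosen with earlier results of these data known. The alternatives were DESeq2 1.42.0, limma 3.58.1 on log2 TPM, RLE size factors, no filter, identifiers kept apart, all mapped libraries, blocks, the animal number as a covariate and leaving out each library. The code was tested on simulated data. Depth was 11656439 to 22801247 expected counts, and the median SE of a log2 fold change between stress groups was 0.12 in both regions.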

Additional observations from a re-analysis of the deposited data

Results flagged for a closer look

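In a few members 1 control library stood far from the other controls of its region by Dixon's criterion, which chance meets in about 1 of 20 groups. In the BLA these were 3 of 63 members. Dnajc7 was at 130.7 TPM in animal 27 against 110.2 to 117.3 TPM in the others, Hsp90ab1 at 1112 TPM in animal 28 against 1271 to 1317 TPM, and Hspa12a at 103.0 TPM in animal 32 against 87.65 to 92.45 TPM. In the DG there were 5 of 64. Dnaja2 was at 164.4 TPM in animal 17 against 178.0 to 182.2 TPM, Dnajb3 at 6.70 TPM in animal 32 against 3.11 to 4.06 TPM, Dnajc13 at 15.81 TPM in animal 2 against 17.73 to 18.26 TPM, Hsp90aa1 at 1164 TPM in animal 14 against 948.0 to 995.6 TPM, and Hspa1b at 29.58 TPM in animal 2 against 17.9 to 20.58 TPM.

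The control libraries that were left out differed from the rest in many members. In the left-out BLA control (animal 2), 22 of 63 members lay outside the range of all other BLA libraries, 21 of them above it, which is 34.9% against 40.4% of all genes. Its summed level of leptomeningeal fibroblast markers was 80.9 TPM against 17.1 to 21.2 TPM in the other controls. In the left-out DG control (animal 35), 42 of 64 members lay outside the range, 32 below and 10 above, which is 65.6% against 54.6% of all genes. Dnajb14 stood at 0.333 and Dnajc5 at 0.501 of the mean of the other controls. Its neuron markers summed to 3653 TPM against 4114 to 4361 TPM, and its blood markers to 1005 TPM against 627 to 684 TPM. The part of these markers in the members' levels was not tested.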

How the results depend on the processing

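No alternative gave a member an adjusted p under 0.05, in 166 alternatives over 9 comparisons, and the smallest adjusted p was 0.183 (Hspa4l, DG control versus stress-low, without control animal 14). Of 166 counts at an unadjusted p under 0.05, 117 stayed within 1.5 times the value in the report. The 37 log2 fold changes that were followed kept their sign in 698 alternatives. They were picked mainly for a small p in these same libraries, which the alternatives reuse, so a kept sign was likely beforehand. Sizes moved more, as for Dnajc8 in the BLA (stress-low versus stress-high, -0.02 without stress-low animal 34 and -0.18 without animal 30) and Dnajc16 in the DG (control versus stress-high, -0.01 with all mapped libraries). The other counts follow. They, and most counts above with single libraries left out, stand without the share of all genes in the same setting. They are thus no result about the members. With all mapped libraries they were 0 for DG stress-low versus stress-high, 5 for DG control versus stress-low, 0 for DG control versus stress-high and 0 for both region differences that had 1. With animal number above 20 as a covariate, which only the controls set, they were 1 and 1 in the BLA (stress-low versus stress-high and control versus stress-low, both Dnajb9) and 2 in the DG, for stress-low versus stress-high and for control versus stress-high. With limma on log2 TPM, BLA control versus stress-low gave 2 with a pseudocount of 1, 2 with 0.1 and 3 without a filter. DG stress-low versus stress-high gave 2 and 2 with the filter, DG control versus stress-low 4, 4 and 5, and DG control versus stress-high 0 in each. With single libraries left out, the counts were 0 to 2 for BLA control versus stress-low, 0 to 1 for BLA control versus stress-high, and 0 to 3, 1 to 7 and 0 to 2 for the DG in the order of the report. For the region differences they were 0 to 3, 0 to 2 and 0 to 1. The cause was not tested.

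Title replicate numbers did not pair libraries (same-number deviations had r from -0.11 to 0.0728 in the BLA and from -0.191 to 0.111 in the DG). With them as a replicate block the count was 3 for DG control versus stress-low, and for DG stress-low versus stress-high it was 1, Dnajb5 in place of Hspa4l. With the animal as a replicate block it was 2 for the region difference in control versus stress-low, and no other count moved by over 1.5 times. Without the 2 animals farthest from the BLA median, r between regions was -0.138 for Hspa1b and -0.18 for Hspb1. With 3 animals in each stress group, 33 BLA and 29 DG members had an interval within ±0.25 for stress-low versus stress-high, and for the others larger changes cannot be told from none.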
